A study of Mus musculus with 8 samples.

Results

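The hippocampus of growth-restricted mouse offspring was compared between postnatal day 3 and week 8. The libraries were the 4 that GEO's treatment and stage labels assign to this group, 2 at day 3 and 2 at week 8, of 8 libraries in the series. The group is named IUGR, for intrauterine growth retardation, after the treatment of the mother: from 14.5 days post coitum (dpc) dams received intraperitoneal dexamethasone, a synthetic glucocorticoid, at 1 mg/kg on each of 5 days. The other 4 libraries, again 2 at each age, came from offspring of dams given the same volume of normal saline (NS). They are used to show where the IUGR change with age differs. They also enter the filtering of genes, the scaling and the estimate of spread behind the p-values of the main tests. All offspring were wildtype C57BL/6J mice labelled male. The labels do not tie a library to an animal, a litter or a dam, so the p-values reflect no more than how these samples vary, part of which may be technical. No body weight entered the comparison, and the group's growth is known only from its name.

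The mouse hippocampus is still being built at birth. Granule neurons of the dentate gyrus arise mostly after birth from dividing progenitors, young neurons then pass through a phase of neurite growth marked by doublecortin and related cytoskeletal proteins, and synapses form and exchange their receptor subunits. Glia follow: astrocytes acquire their transporters and gap junctions, and oligodendrocytes wrap axons in myelin in the weeks after birth. The comparison of week 8 with day 3 shows how far these programmes appear in the RNA of offspring exposed to dexamethasone before birth, which is the tissue in which the series title places impaired neurogenesis and the dioxygenase Tet1.

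The 4 libraries held 17638728 and 18143199 counts at day 3 and 14787742 and 14586285 at week 8 (replicates 1 and 2). Levels are in CPM, which divides each count by its library's total. A count of 0 allows up to 3 counts, or between 0.165 and 0.206 CPM here, for counting error only. Across genes, log2(CPM + 1) of the 2 day 3 libraries correlated at 0.988 but that of the 2 week 8 libraries only at 0.928, while each week 8 library correlated at 0.987 or 0.988 with the NS library of the same number. Week 8 replicate 2 had 2 counts of Rpph1, the RNA of ribonuclease P, against 872768 to 959735 in the other 3 libraries, and its 66 histone genes of the Hist1, Hist2 and Hist3 clusters summed to 167 CPM against 1551 in week 8 replicate 1 and 7210 and 6118 at day 3. Eef1a1, a translation elongation factor, made up 3.70% of the counts of week 8 replicate 1 and 0.272% of those of replicate 2. In NS its share at week 8 was 0.366% and 0.218% (replicates 1 and 2), so the high share was in IUGR week 8 replicate 1 alone. Day 3 replicate 2 had 5130 counts of Xist, the RNA of the inactive X chromosome, and 74 of 4 Y-linked genes, against 81 and 5364 in replicate 1, and so went against its male label. NS day 3 replicate 2 did so in the same way, with 4998 counts of Xist and 34 of the Y-linked genes against 4 and 3783 in NS replicate 1. The day 3 libraries also differed in RNA of neighbouring tissue: 20 choroid plexus genes summed to 3664 CPM in replicate 1 and 664 in replicate 2, and 15 tested genes of thalamus and habenula to 264 and 593. The 4 haemoglobin genes were at 0 in every IUGR library. Alas2 and Slc4a1, also on the list of blood cell genes, had counts in each of them, so these zeros do not show that blood was absent. The 2 week 8 libraries stood far apart, and every change with age was taken 3 times, against both week 8 libraries, against replicate 1 alone and against replicate 2 alone.

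Against both week 8 libraries, 1494 of 15999 genes tested (9.34%) were higher and 1197 (7.48%) lower at week 8 than at day 3 at an adjusted p under 0.05, with edgeR's quasi-likelihood test and Benjamini-Hochberg adjustment. Against week 8 replicate 1 alone 3491 genes (21.8%) were higher and 3337 (20.9%) lower, and against replicate 2 alone 4651 (29.1%) and 4535 (28.3%). A single library gave more calls because its spread was then taken from the day 3 pairs, and it is assumed to vary as they do. With the spread taken from the 3 remaining pairs of libraries, those numbers were 929 and 2382 in all. The 3 comparisons share the day 3 libraries, and the one against both holds each week 8 library, so calls made in all 3 are no independent support for one another. The 1489 higher (9.31%) and 1186 lower (7.41%) genes called in all 3 comparisons are those said below to have risen or fallen. Their median log2 fold change was 1.81 for the genes that rose, of which 639 rose at least 4-fold, and -1.60 for those that fell, of which 428 fell at least 4-fold. For comparison, the median over all genes tested was 0.02 against both libraries, -0.02 against replicate 1 and -0.06 against replicate 2. With upper-quartile scaling the first of these was -0.09. Counts of list members that rose or fell are to be read beside the 9.31% and 7.41% of all genes tested. In both single comparisons 4964 genes (31%) were called in 1 direction.

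**Figure D1:**
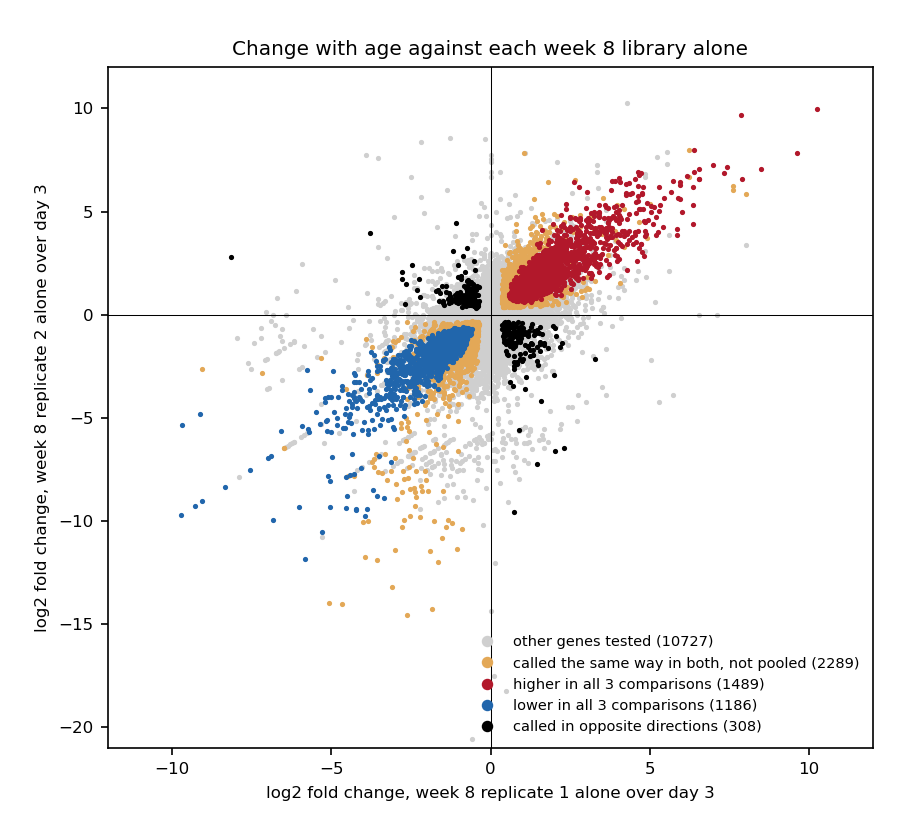
Each point is 1 of 15999 genes; the axes give its log2 fold change from day 3 to week 8 in IUGR offspring, against week 8 replicate 1 alone (x) and replicate 2 alone (y). The 1489 red and 1186 blue genes changed the same way in all 3 comparisons and lie along the diagonal, the 308 black genes were called in opposite directions, and the points below -6 on y with x near 0 have few or no counts in week 8 replicate 2.

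The pooled counts depend on single libraries. Without day 3 replicate 2, the IUGR library that goes against its label, 157 genes were called, without day 3 replicate 1 91, without week 8 replicate 2 929 and without week 8 replicate 1 2382. Leaving out either NS library gave 1082 and 1086 calls at day 3 and 4090 and 4104 at week 8, through the shared spread. Without both day 3 libraries that go against their label, IUGR and NS replicate 2, edgeR called 0, with 2096 genes at an unadjusted p under 0.05. The single comparisons without day 3 replicate 2 cannot show whether their calls hold. They set 1 library against 1 and take the spread from the NS day 3 pair alone. The lists described below also depended on single libraries. Without day 3 replicate 2 the test against both libraries called 11 of 22 myelin genes higher, 8 of 30 cell cycle genes lower, 6 of 23 immature neuron genes lower, 2 of 22 astrocyte genes and 1 of 19 immediate early genes higher. In the same test without that library the lists of microglia, presynaptic and postsynaptic genes lost every call. Without day 3 replicate 1 the myelin, cell cycle and astrocyte lists kept fewer calls than without replicate 2. The rises and falls given below therefore rest on both day 3 libraries.

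The largest rises among genes with a mean of at least 5 CPM and no overlap between ages were those of myelin. Mobp, a myelin basic protein of oligodendrocytes (chr9:120149707-120181484 in GRCm38), had 0.340 and 0.386 CPM at day 3 and 421 and 341 at week 8, a log2 fold change of 10.11 ± 0.43 (SE). The day 3 libraries held a handful of counts each, and both week 8 libraries were far above them. Next came Opalin and Mal, oligodendrocyte membrane proteins (7.37 ± 1.03 and 7.29 ± 0.49). Fa2h, which hydroxylates the fatty acids of myelin lipids, had a log2 fold change of 6.67 ± 0.53 and Mbp, myelin basic protein, of 6.15 ± 0.44. Of the 10 largest rises, 4 were of genes on no myelin list: Zfp831, a zinc finger protein (6.55 ± 0.35), Etnppl, an enzyme of phosphoethanolamine breakdown found in astrocytes (6.28 ± 0.44), Kirrel2 (6.19 ± 1.40) and the calcium-binding protein gene Cabp7 (6.18 ± 0.95). Zfp831 had 0.340 and 0.441 CPM at day 3 and 34.8 and 34.9 at week 8, so its 2 week 8 libraries lay close together. Those of Cabp7 did not, with 44.3 CPM in week 8 replicate 1 and 213 in replicate 2, both far above 2.15 and 1.65 at day 3.

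The largest falls combined an imprinted RNA, histones, a mitotic kinase and genes of young neurons. H19, a maternally expressed imprinted RNA of fetal tissue (chr7:142575529-142578143), had 78.1 and 87.0 CPM at day 3 and 0.676 and 0.0686 at week 8, a log2 fold change of -7.65 ± 1.06. St8sia2, the enzyme that puts polysialic acid on the adhesion molecule NCAM in young neurons, had 93.9 and 111 CPM at day 3 and 1.83 and 1.85 at week 8 (-5.68 ± 0.35), and Trim67, a ubiquitin ligase of developing neurons, 316 and 267 CPM at day 3 and 4.46 and 6.38 at week 8 (-5.64 ± 0.52). For both genes the 2 week 8 libraries lay together and far under day 3. Dcx, doublecortin, fell by 5.32 on the log2 scale and Cdk1, the kinase that starts mitosis, by 5.63. Isl1, a transcription factor of striatal and other subcortical neurons, had 10.7 and 12.6 CPM at day 3, 0.270 in week 8 replicate 1 and no count in replicate 2, where the floor of 3 counts makes it at least 56.6-fold lower. The remaining 4 were the histone genes Hist1h2af, Hist1h3g, Hist1h2bp and Hist1h3b, with log2 fold changes between -6.77 and -5.64. Hist1h2af had no count in week 8 replicate 2, where the floor makes it at least 140-fold lower. The histone genes as a whole differed between the 2 week 8 libraries and are described below.

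**Figure D2:**
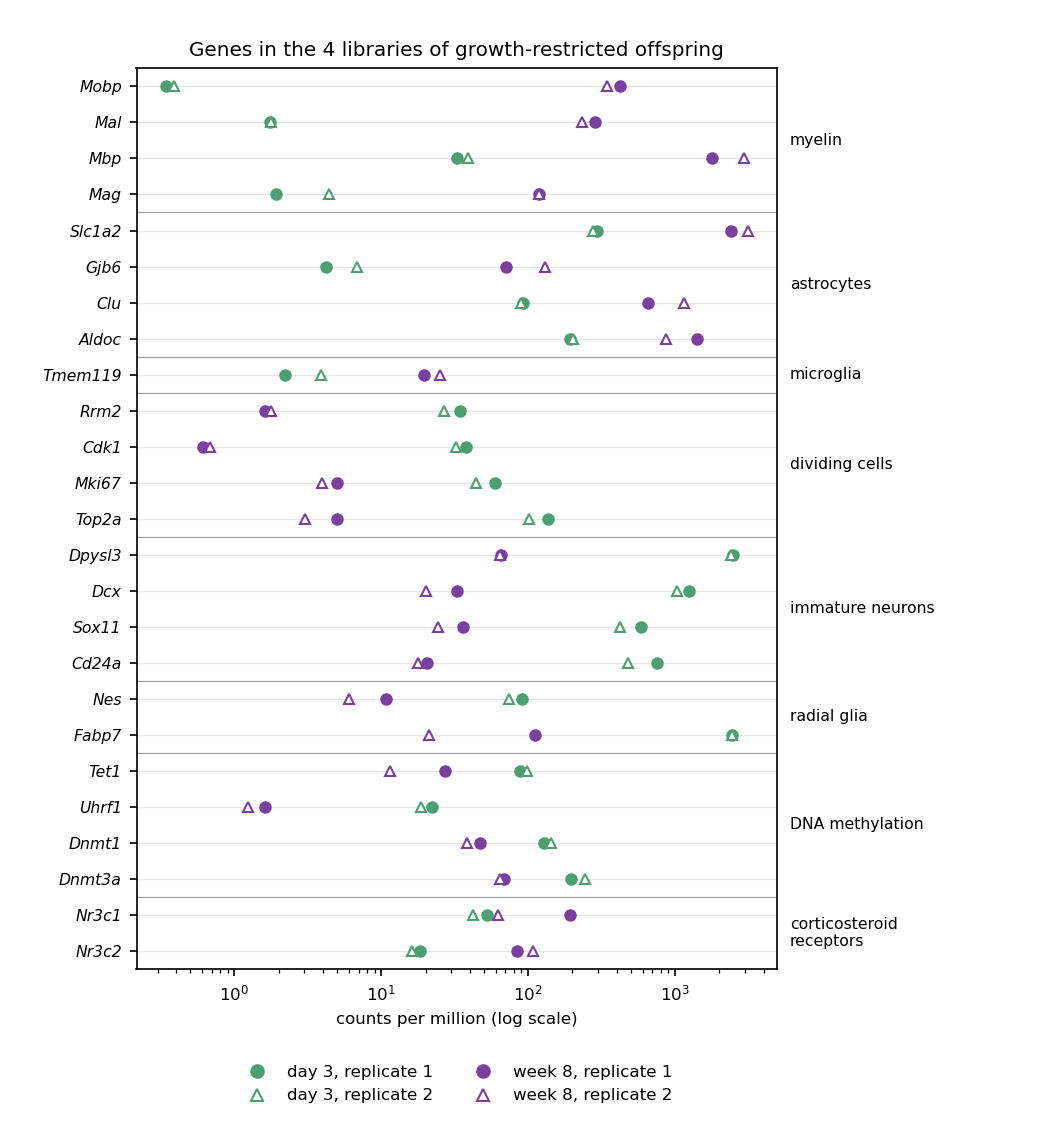
Levels of 25 genes in the 4 IUGR libraries, in CPM on a log axis, with day 3 in green and week 8 in purple, replicate 1 as filled circles and replicate 2 as open triangles. The ages do not overlap in any of them, and Nr3c1 comes nearest, with 62.5 in week 8 replicate 2 against 52.7 in day 3 replicate 1.

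Myelin genes rose almost without exception. Of 22 tested genes of myelinating oligodendrocytes 21 rose and none fell, with a median log2 fold change of 4.85 (4.93 against replicate 1 and 4.50 against replicate 2), beside 0.02 over all genes. Mbp had 32.8 and 38.7 CPM at day 3 and 1774 and 2948 at week 8, and Mag, the myelin-associated glycoprotein at the axon surface, 1.93 and 4.41 CPM at day 3 and 118 and 118 at week 8, a log2 fold change of 5.33 ± 0.45. Both genes were low in both day 3 libraries and high in both week 8 libraries. Myrf, the transcription factor that switches on myelin genes, went from 1.36 and 1.93 to 30.2 and 38.0 CPM. Mog, a late surface glycoprotein, rose by less (2.58 ± 0.22), from 9.13 and 9.37 CPM at day 3. Klk6, a protease of mature oligodendrocytes, was the member that did not pass, with no count at day 3 and 1.89 and 0.0686 CPM at week 8. In these bulk samples fewer cells of a type and less RNA per cell cannot be told apart, here and for all lists that follow.

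Of 12 tested genes of oligodendrocyte precursors 5 rose and none fell (median 1.39 against both libraries, 0.75 against replicate 1 and 1.82 against replicate 2), and 8 were called higher in both single comparisons. Those that rose were Bcas1, Enpp6 and Neu4, which mark cells about to myelinate, and Sox8 and Sox10, transcription factors of the lineage. Bcas1 had 4.48 and 4.80 CPM at day 3 and 88.5 and 128 at week 8 (4.65 ± 0.33). Enpp6 had 0.907 and 0.992 CPM at day 3 and 7.03 and 4.32 at week 8 (2.67 ± 0.41), and again neither gene overlapped between ages. Pdgfra, the growth factor receptor of precursors, had 93.3 and 93.6 CPM at day 3 and 48.2 and 91.8 at week 8 (-0.31 ± 0.31), and Cspg4, their NG2 proteoglycan, 14.6 and 15.7 CPM at day 3 and 11.8 and 17 at week 8 (0.04 ± 0.34). Neither passed the test against both libraries. For Cspg4 the week 8 levels lay on both sides of day 3, and for Pdgfra only replicate 1 was well below.

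Astrocyte genes rose together. Of 22 tested, 17 rose and none fell, with medians of 1.98 against both libraries, 1.88 against replicate 1 and 2.08 against replicate 2. Slc1a2, the glutamate transporter GLT-1, had 294 and 276 CPM at day 3 and 2392 and 3130.2 at week 8 (3.38 ± 0.33). Gjb6, the connexin 30 of astrocyte gap junctions, had 4.20 and 6.78 CPM at day 3 and 71.1 and 129.8 at week 8 (4.30 ± 0.39), and Glul, glutamine synthetase, 409 and 366 CPM at day 3 and 2475 and 1997 at week 8 (2.63 ± 0.28). In all 3 genes both week 8 levels were several times either day 3 level. Clu, a secreted chaperone, Aldoc, a glycolytic enzyme, and S100b, a calcium-binding protein, rose by 3.41, 2.63 and 4.44 on the log2 scale, and the potassium channel Kcnj10 by 3.14. Slc1a3, the transporter GLAST that radial glia already carry, changed less (1.13 ± 0.30). Aldh1l1, a folate enzyme of all astrocytes, had 90.7 and 94.6 CPM at day 3 and 95.6 and 74.6 at week 8 (-0.02 ± 0.20), so the day 3 and week 8 levels overlapped. Aqp4, the water channel of astrocyte endfeet, was above day 3 in both week 8 libraries, 268 and 164 against 93.3 and 126 CPM, and passed only in the single comparisons.

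Microglia genes were higher at week 8 in smaller steps. Of 20 tested, 10 rose and none fell (median 1.10 against both libraries, 1.28 against replicate 1 and 1.01 against replicate 2), among them the complement genes C1qa, C1qb and C1qc, the purine receptor P2ry12 and Tmem119, a surface marker of resident microglia. P2ry12 had 12.3 and 13.2 CPM at day 3 and 36.6 and 30.6 at week 8 (1.50 ± 0.25) and Tmem119 2.21 and 3.91 CPM at day 3 and 19.5 and 25.2 at week 8 (2.97 ± 0.42). The other 8 of the 18 genes called higher against replicate 1 alone did not pass in all comparisons. Aif1, the microglial protein Iba1, had 14.3 CPM in week 8 replicate 1 and 3.02 in replicate 2, on either side of 5.61 and 6.72 at day 3.

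Genes of the cell cycle and DNA replication fell. Of 30 tested, 24 fell and none rose, with medians of -2.48 against both libraries, -2.85 against replicate 1 and -2.56 against replicate 2. The summed level of the list was 1062 and 842 CPM at day 3 and 293 and 307 at week 8. The 3 with the smallest p were Rrm2, a subunit of the reductase that makes deoxynucleotides, Cdk1 and Mki67, the antigen Ki-67 of dividing cells. The upstream windows of these 3 genes are shown because the members of the list moved together. They are the 250 bases before the transcription start in RefSeq's promoter table (GRCm38.p6), 5′ to 3′ on the gene's strand, with matches to CCAAT, a box bound by the factor NF-Y, and to TTTGAA, the core of the cell cycle homology region, in capitals on either strand (ATTGG and TTCAAA on the other).
Rrm2, chr12:24708004-24708253, plus strand: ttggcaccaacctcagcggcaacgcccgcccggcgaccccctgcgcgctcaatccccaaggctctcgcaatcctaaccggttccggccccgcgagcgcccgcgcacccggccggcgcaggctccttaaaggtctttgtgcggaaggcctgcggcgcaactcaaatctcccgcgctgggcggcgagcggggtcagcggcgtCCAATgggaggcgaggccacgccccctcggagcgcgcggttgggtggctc
Cdk1, chr10:69352913-69353162, minus strand: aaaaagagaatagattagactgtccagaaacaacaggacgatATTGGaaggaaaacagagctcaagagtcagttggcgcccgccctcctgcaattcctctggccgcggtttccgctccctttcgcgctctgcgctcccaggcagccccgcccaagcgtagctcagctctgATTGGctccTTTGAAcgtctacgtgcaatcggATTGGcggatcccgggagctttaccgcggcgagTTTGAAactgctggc
Mki67, chr7:135716380-135716629, minus strand: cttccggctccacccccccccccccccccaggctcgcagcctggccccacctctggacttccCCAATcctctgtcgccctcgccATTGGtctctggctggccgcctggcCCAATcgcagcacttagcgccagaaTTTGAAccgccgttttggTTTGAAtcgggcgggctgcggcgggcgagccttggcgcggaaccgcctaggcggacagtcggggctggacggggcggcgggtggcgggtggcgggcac
Rrm2 had 1 CCAAT match, 50 bases before the start, and no TTTGAA. Cdk1 had 3 CCAAT matches, at 208, 80 and 48 bases, and 2 of TTTGAA, at 71 and 15. Mki67 had 3 of CCAAT, at 188, 166 and 141, and 2 of TTTGAA, at 116 and 98. Of the 25 genes of the list with a window, 20 (80%) held CCAAT and 7 (28%) TTTGAA, against 35.8% and 10.4% of 11941 tested genes with a window. All 7 with TTTGAA also held CCAAT, which 3.95% of tested genes did. Among all 870 genes that fell and had a window, 39.7% held CCAAT and 11.8% TTTGAA, and among 1125 that rose 36.2% and 8.53%. TTCCCGC, an element bound by E2F factors, was in 2 of the 25 windows (8%) and in 6.57% of tested genes. These are counts of letters in a short window and show no binding.

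Cdk1 had 37.8 and 32.1 CPM at day 3 and 0.609 and 0.686 at week 8 (-5.63 ± 0.49). Mki67 had 59.8 and 44.3 CPM at day 3 and 5.00 and 3.98 at week 8 (-3.43 ± 0.32), and Top2a, the topoisomerase of mitotic chromosomes, 137 and 101 CPM at day 3 and 5.00 and 3.02 at week 8 (-4.78 ± 0.64). The 2 week 8 libraries of Cdk1, Mki67 and Top2a were 1.13-fold, 1.3-fold and 1.66-fold apart. Rrm2 had 34.3 and 26.5 CPM at day 3 and 1.62 and 1.78 at week 8 (-4.05 ± 0.28). The genes of the replicative helicase, Mcm2 to Mcm5 and Mcm7, changed by between -2.29 and -0.83, and Pcna, the sliding clamp that also serves DNA repair, by -1.20 ± 0.29. The mitotic genes Aurka, Aurkb, Bub1, Bub1b, Ccnb1, Ccnb2, Cdc20, Cenpf and Kif11 lay between -4.47 and -2.29. The 6 members that did not fall by the rule were Mcm6, Plk1, Ccnd1, Ccnd2, Ccne1 and E2f1. The cyclin gene Ccnd1 had 28.9 and 31.5 CPM at day 3 and 43.5 and 50.6 at week 8 (0.75 ± 0.28), above day 3 in both week 8 libraries, and was called higher against each of them alone.

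Genes of intermediate progenitors and immature neurons fell as well, 13 of 23 tested, and none rose (median -1.78 against both libraries, -2.25 against replicate 1 and -1.18 against replicate 2). Dpysl3, a collapsin response mediator of growing axons, had 2474 and 2396 CPM at day 3 and 65.3 and 64.4 at week 8 (-5.13 ± 0.27). Dcx (chrX:143855842-143933311), which binds microtubules in migrating neurons, had 1243 and 1023 CPM at day 3 and 32.7 and 20.2 at week 8 (-5.32 ± 0.35). In both genes the 2 week 8 libraries lay far below day 3. Sox11 and Sox4, transcription factors of new neurons, fell by 3.97 and 3.35, and Cd24a, a surface protein of neuroblasts, by 4.90. Eomes, which marks intermediate progenitors, had 9.47 and 4.52 CPM at day 3 and 0.203 and 0.960 at week 8 (-3.47 ± 0.80). The basic helix-loop-helix factors did not follow the same course in both week 8 libraries. Neurod1 had 14.3 and 13.1 CPM at day 3 and 7.91 and 34.8 at week 8 and was called lower against replicate 1 and higher against replicate 2. Neurog2 had 0.203 CPM in replicate 1 and 3.43 in replicate 2, on either side of 3.23 and 1.93 at day 3. Prox1, which is kept in mature granule cells, was higher in both week 8 libraries (34.1 and 66.6 against 10.8 and 27.6 CPM) without passing in all comparisons.

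Radial glia genes were mixed, with 4 of 19 lower and 1 higher, beside 7.41% and 9.31% of all genes tested. Fabp7, the brain lipid-binding protein of radial glia, had 2438 and 2425 CPM at day 3 and 110.5 and 21.0 at week 8 (-5.10 ± 1.26). Nes, the intermediate filament nestin, had 91.3 and 73.9 CPM at day 3 and 10.7 and 6.03 at week 8 (-3.20 ± 0.36). For both genes the week 8 libraries were low but apart from each other, by 5.25-fold for Fabp7 and 1.77-fold for Nes. Tnc, tenascin C, and Vim, vimentin, also fell, and Slc1a3 was the gene that rose. Sox2, Pax6, Hes5 and Notch1, regulators that keep progenitors, were not called against both libraries (-0.72, -0.67, -0.38 and -0.16).

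Cytoskeletal genes of the growth cone fell in 9 of 20 cases and rose in 1. Tuba1a, the main alpha-tubulin of developing neurons, had 6497 and 6155 CPM at day 3 and 837 and 1293 at week 8 (-2.46 ± 0.38), and Tubb2b 2444 and 2392 CPM at day 3 and 179.9 and 585 at week 8 (-2.55 ± 0.65). Dpysl5, another collapsin response mediator, had 495 and 507 CPM at day 3 and 18.3 and 42.1 at week 8 (-3.95 ± 0.55), and Gap43, the growth-associated protein, 565 and 698 CPM at day 3 and 138 and 117 at week 8 (-2.20 ± 0.26). All 4 genes were lower in both week 8 libraries than in either day 3 library. The 2 beta-thymosins, small proteins that hold actin monomers, differed: Tmsb10 had 317 and 366 CPM at day 3 and 38.8 and 31.0 at week 8 (-3.18 ± 0.48) and fell, while Tmsb4x had 3404 and 2834 CPM at day 3 and 2093 and 1357 at week 8 (-0.75 ± 0.46) and did not pass. Nrn1, neuritin, an activity-regulated surface protein, was the gene that rose (2.70 ± 0.47).

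Axon guidance genes fell in 8 of 22 cases, and 1 rose (median -0.82 against both libraries, -0.79 against replicate 1 and -0.93 against replicate 2). Cxcr4, the chemokine receptor that guides migrating granule cells, had 30.1 and 26.6 CPM at day 3 and 5.07 and 5.07 at week 8 (-2.38 ± 0.43), with the week 8 libraries equal. The semaphorins Sema3c and Sema3f, the netrin Ntn1 and its receptor Dcc, Robo1, Epha3 and Efnb2 fell by between 0.81 and 2.33 on the log2 scale. Slit3, a ligand of Robo receptors, was the one that rose, from 10.1 and 11.7 to 35.0 and 52.0 CPM (2.1 ± 0.45).

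Some genes of synaptic receptors rose in all 3 comparisons, as did 9.31% of all genes tested. Of 7 NMDA receptor genes 2 rose, Grin2a and Grin2c, and none fell. In all, 4 of the 7 had a positive log2 fold change against both libraries (median 0.17). The levels that follow are in CPM per kilobase of gene model (RPKM), so that genes can be set side by side. Grin2a, the NMDA receptor subunit of mature synapses, had 3.61 and 3.27 RPKM at day 3 and 29.1 and 12.2 at week 8, and its log2 fold change was 2.69 ± 0.49. Grin2b, the subunit that prevails in young synapses, had 37.2 and 37.3 RPKM at day 3 and 42.1 and 10.5 at week 8 and did not pass (-0.40 ± 0.74), since only week 8 replicate 2 lay below day 3. The ratio of Grin2a to Grin2b per length was therefore 0.0970 and 0.0877 at day 3 and 0.691 and 1.17 at week 8, higher in both week 8 libraries than in either day 3 library. In NS offspring the same ratio was 0.102 and 0.0794 at day 3 and 0.846 and 1.56 at week 8. Grin2c, a subunit that gives weak magnesium block, had 0.336 and 0.394 RPKM at day 3 and 4.99 and 12.5 at week 8 (4.68 ± 0.79). The obligatory subunit Grin1 was higher in both week 8 libraries, 7.37 and 11.4 RPKM at day 3 and 23.8 and 81.3 at week 8, and passed only in the single comparisons.

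**Figure D3:**
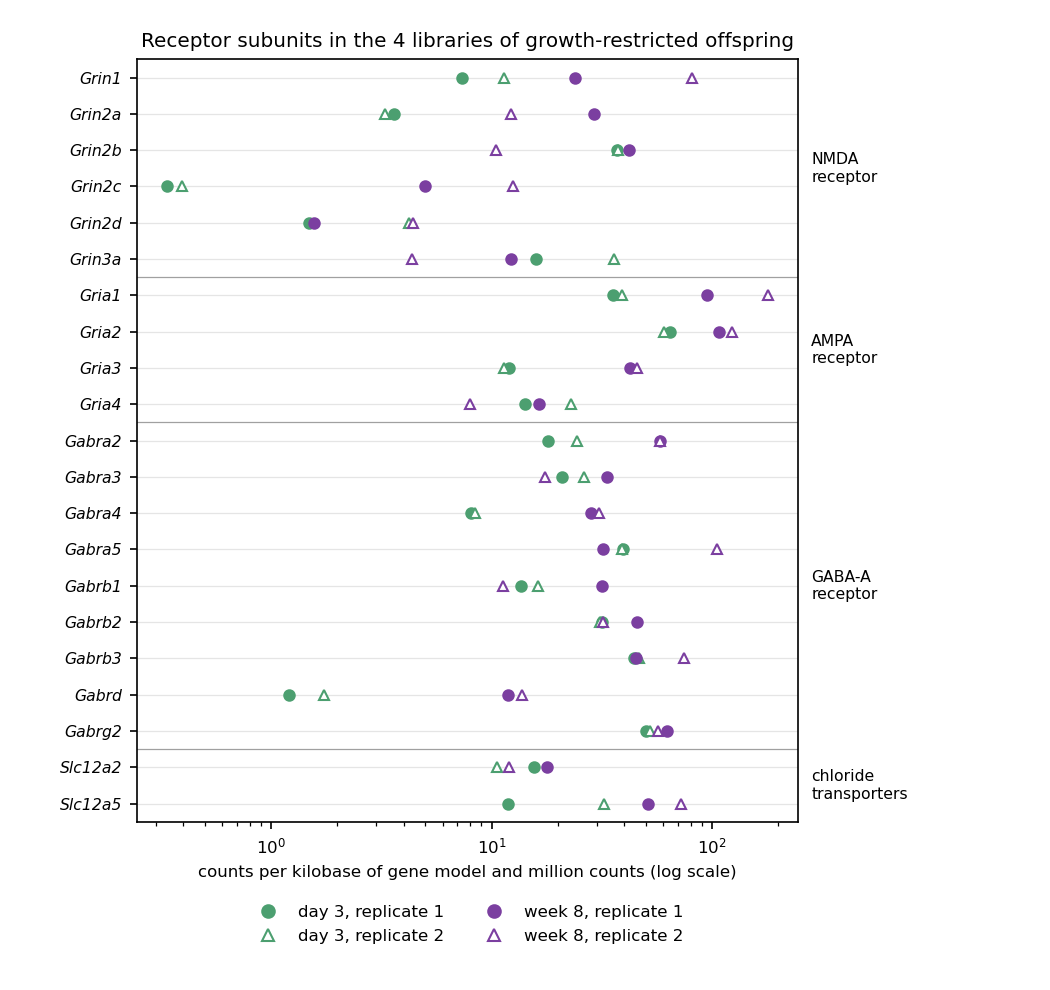
Levels of 21 receptor subunit and chloride transporter genes in the 4 IUGR libraries, in CPM per kilobase of gene model on a log axis, with day 3 in green and week 8 in purple, replicate 1 as filled circles and replicate 2 as open triangles. Grin2a, Gria1 to Gria3, Gabra2, Gabra4 and Gabrd moved right in both week 8 libraries, while Grin2b, Gabra3 and Gabrb1 have their 2 week 8 libraries on both sides of day 3.

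AMPA receptor genes had 3 rises among 11 tested, all of pore-forming subunits: Gria1 with 35.5 and 38.9 RPKM at day 3 and 94.9 and 179 at week 8 (1.99 ± 0.39), Gria2, which blocks calcium entry, with 64.2 and 60.4 RPKM at day 3 and 108 and 123 at week 8 (1.00 ± 0.22), and Gria3 with 12 and 11.4 RPKM at day 3 and 42.7 and 45.9 at week 8 (2.03 ± 0.19). Gria4 had 14.2 and 22.9 RPKM at day 3 and 16.5 and 8.02 at week 8 and did not pass. Most genes of this list were higher at week 8 without passing in all comparisons. Of the 11, 10 had a positive log2 fold change against both libraries. The median was 1.67 against both, 0.46 against replicate 1 and 1.96 against replicate 2. Among 14 genes of GABA-A receptors and chloride transporters 4 rose, among them Gabra2, Gabra4 and Gabrd. Of the 14, 12 had a positive log2 fold change against both libraries (median 0.57). Gabra4, an extrasynaptic subunit of granule cells, had 8.09 and 8.42 RPKM at day 3 and 28.4 and 30.7 at week 8 (1.95 ± 0.18). Gabrd, its partner in those receptors, had 1.21 and 1.73 RPKM at day 3 and 11.8 and 13.8 at week 8 (3.23 ± 0.32). Gria1, Gria2, Gria3, Gabra2, Gabra4 and Gabrd were each higher in both week 8 libraries than in either day 3 library, and Gria4 was not. Slc12a5, the chloride exporter KCC2 whose rise is known to turn GABA inhibitory, had 11.8 and 32.3 RPKM at day 3 and 51.2 and 72.0 at week 8 and passed against replicate 2 alone only, with its day 3 libraries 2.73-fold apart. Its ratio to the importer Slc12a2 was 0.760 and 3.06 at day 3 and 2.87 and 5.99 at week 8, so the ages overlapped.

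In the postsynaptic density 3 of 18 genes rose, beside 9.31% of all genes tested. The list's median log2 fold change was 1.12 against both libraries, 0.64 against replicate 1 and 1.20 against replicate 2. Camk2a, the kinase of synaptic plasticity, had 49.0 and 68.4 CPM at day 3 and 762 and 4854 at week 8, a log2 fold change of 5.69 ± 1.30. Its week 8 libraries were 6.37-fold apart, and both were far above day 3. Ddn, dendrin, had 55.1 and 54.8 CPM at day 3 and 1381 and 3085 at week 8 (5.45 ± 0.63), and Icam5, telencephalin of forebrain dendrites, 12.9 and 21.2 CPM at day 3 and 150.5 and 434 at week 8 (4.21 ± 0.86). Nrgn, Shank3 and Dlg4 had the same form of difference, with week 8 replicate 2 at 1092, 340.3 and 794 CPM and replicate 1 at 163, 60.7 and 250.3. They were called higher against each alone and not against both.

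Presynaptic genes rose in 8 of 20 cases and fell in 1 (median 1.94 against both libraries, 1.34 against replicate 1 and 2.23 against replicate 2). Snap25, of the vesicle fusion complex, had 221 and 231 CPM at day 3 and 1221 and 2090.1 at week 8 (2.98 ± 0.36), and Syt1, its calcium sensor, 306 and 372 CPM at day 3 and 1148 and 1237 at week 8 (1.92 ± 0.26). Slc17a7, the vesicular glutamate transporter of cortical and hippocampal neurons, had 44.7 and 51.0 CPM at day 3 and 425 and 1415 at week 8 (4.37 ± 0.92). Slc17a6, the transporter used mainly by subcortical neurons, had 62.7 and 140.1 CPM at day 3 and 34.6 and 8.16 at week 8, was lower against each week 8 library alone and did not pass against both. Slc17a6 was at 140.1 CPM in the day 3 library with the higher thalamic sum. It is on the thalamic list itself, so its level is part of that sum. The part of the thalamic difference in this result was not tested. Syn3, a synapsin of developing neurons, was the gene that fell (-1.23 ± 0.30).

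Many genes of ion channels and pumps rose. Of 22 potassium and sodium channel genes 12 rose and 1 fell (median 1.65 against both libraries, 1.55 against replicate 1 and 1.9 against replicate 2). Kcna1, a channel of axons, had 15.4 and 13.8 CPM at day 3 and 143 and 204 at week 8 (3.68 ± 0.31), and Scn2b, an auxiliary sodium channel subunit, 13.9 and 18.9 CPM at day 3 and 213 and 282 at week 8 (4.02 ± 0.35). Scn8a, the adult channel of the axon initial segment, and Scn1a rose by 2.16 and 1.62, while Scn3a, the channel of the fetal brain, fell from 152 and 203 to 72.0 and 65.1 CPM (-1.27 ± 0.23). These 3 sodium channel genes did not overlap between ages. Of 6 genes of the sodium-potassium pump 3 rose and none fell, among them the beta subunit gene Atp1b1, by 2.37 ± 0.52.

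Genes of granule cells and hippocampal fields rose in 9 of 23 cases and fell in 1 (median 1.75 against both libraries, 0.93 against replicate 1 and 2.22 against replicate 2), and all 23 had counts in every IUGR library. Rasgrp1, a Ras exchange factor, had 36.5 and 45.9 CPM at day 3 and 524 and 666 at week 8 (3.96 ± 0.28). Spink8, a marker of CA1 pyramidal cells, had 0.680 and 0.937 CPM at day 3 and 30.0 and 25.0 at week 8 (5.18 ± 0.60), and Calb1, calbindin of granule cells, 34.2 and 61.3 CPM at day 3 and 144 and 206 at week 8 (1.98 ± 0.34). C1ql2 and Dsp, which mark dentate granule cells, rose by 4.77 and 4.33 on the log2 scale with wide gaps between libraries of 1 age. C1ql2 had 0.454 and 4.30 CPM at day 3 and 33.8 and 86.5 at week 8, 9.48-fold apart at day 3 and 2.56-fold at week 8. Dsp had 5.39 and 1.71 CPM at day 3 and 17.2 and 116 at week 8, 3.15-fold and 6.77-fold apart. Pvrl3, the nectin of CA3 cells, was the gene that fell (-1.04 ± 0.19). Zbtb20, which specifies the hippocampal primordium, had 44.8 and 40.2 CPM at day 3 and 45.8 and 15.8 at week 8 and was not called against both.

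Of 18 interneuron genes 3 rose and 2 fell, beside 9.31% and 7.41% of all genes tested. Pvalb, parvalbumin of fast-spiking basket cells, had 0.850 and 6.06 CPM at day 3 and 62.6 and 34.6 at week 8 (3.92 ± 0.88). Vip had 4.37 and 2.26 CPM at day 3 and 48.3 and 21.7 at week 8 (3.50 ± 0.56), and Lamp5, of neurogliaform cells, 1.81 and 3.03 CPM at day 3 and 38.8 and 55.5 at week 8 (4.38 ± 0.50). Lhx6 and Sp8, transcription factors of migrating interneurons, fell by 1.67 and 3.45. Gad1, which makes GABA, was higher in both week 8 libraries and did not pass against both (0.93 ± 0.33), and Reln, reelin of Cajal-Retzius and other cells, had 445 and 448 CPM at day 3 and 242 and 43.3 at week 8. Reln was lower against each week 8 library alone, with replicate 2 far below replicate 1.

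Immediate early genes, which neurons switch on within minutes of activity, were higher at week 8 in 10 of 19 cases, and none fell (median 1.89 against both libraries, 1.59 against replicate 1 and 2.35 against replicate 2). Arc, a synaptic plasticity protein, had 3.23 and 3.75 CPM at day 3 and 101 and 76.9 at week 8 (4.77 ± 0.26), Junb 5.61 and 4.85 CPM at day 3 and 42.1 and 45.2 at week 8 (3.16 ± 0.33) and Npas4 1.87 and 2.65 CPM at day 3 and 9.53 and 14.1 at week 8 (2.49 ± 0.51). The ages did not overlap in any of the 3. Fos had 5.16 and 7.66 CPM at day 3 and 18 and 8.16 at week 8 (1.13 ± 0.47) and did not pass against both, nor did Dusp1, Ier2, Egr2, Nr4a2, Nr4a3, Dusp6, Fosl2 and Homer1. The neurotrophin gene Bdnf, on this list and on that of neurotrophins, had 4.99 and 9.37 CPM at day 3 and 28.9 and 46.7 at week 8 (2.5 ± 0.47). Of 9 tested neurotrophin genes 3 rose, among them Bdnf and the sorting receptor Sort1, and the receptor Ntrk2, TrkB, had 377 and 354 CPM at day 3 and 539 and 598 at week 8 (0.74 ± 0.27) and was called only in the single comparisons.

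Tet1 fell. The gene (chr10:62804570-62908996 on GRCm38), whose product oxidises 5-methylcytosine, had 87.7 and 98.8 CPM at day 3 and 27.0 and 11.4 at week 8, a log2 fold change of -2.17 ± 0.54 and an adjusted p of 0.0402 in edgeR's quasi-likelihood test. The change was -1.68 against replicate 1 alone and -2.93 against replicate 2 alone, and the ages did not overlap. In NS offspring Tet1 had 84.3 and 88.0 CPM at day 3 and 29.1 and 11.2 at week 8, a log2 fold change of -2.08 ± 0.54, and the difference between the 2 changes was -0.10 ± 0.74 (SE) with an adjusted p of 1.00 (edgeR). Tet3 was lower in both week 8 libraries, 101 and 95.2 CPM at day 3 and 37.2 and 52.9 at week 8, and passed only against each alone. Tet2 had 70.8 and 60.1 CPM at day 3 and 45.6 and 30.6 at week 8 and passed against replicate 2 alone.

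Other genes of DNA methylation divided into 3 that fell beside Tet1 and 5 that rose, of 18 tested. Over all genes tested 7.41% fell and 9.31% rose. Uhrf1, which brings the maintenance enzyme to replicating DNA, had 22.3 and 18.7 CPM at day 3 and 1.62 and 1.23 at week 8 (-3.73 ± 0.29). Dnmt1, the maintenance methyltransferase itself, had 129 and 143 CPM at day 3 and 46.7 and 38.5 at week 8 (-1.57 ± 0.22), and Dnmt3a, a de novo methyltransferase, 196 and 245 CPM at day 3 and 68.0 and 64.6 at week 8 (-1.63 ± 0.25). In all 3 genes the week 8 libraries lay close together. The risers were the methyl-CpG binding genes Mbd2, Mbd5 and Zbtb4 and the stress-inducible genes Gadd45b and Gadd45g, with Gadd45b at 1.81 and 1.93 CPM at day 3 and 7.03 and 15.5 at week 8 (2.69 ± 0.52).

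Among 14 genes of corticosteroid signalling 3 rose and none fell, beside 9.31% and 7.41% of all genes tested. Nr3c2, the mineralocorticoid receptor, had 18.3 and 16.1 CPM at day 3 and 84.3 and 107 at week 8 (2.58 ± 0.37), and Hsd11b1, which regenerates active corticosteroid, 4.59 and 3.80 CPM at day 3 and 45.8 and 43.7 at week 8 (3.52 ± 0.44). Crhbp, a secreted protein that binds corticotropin-releasing hormone, rose by 2.24. Nr3c1, the glucocorticoid receptor that dexamethasone binds, had 52.7 and 42.3 CPM at day 3 and 191 and 62.5 at week 8. It was higher against each week 8 library alone (2.11 and 0.50) and did not pass against both (1.52 ± 0.60, edgeR adjusted p = 0.128), with week 8 replicate 1 3.06-fold above replicate 2. Fkbp5, the receptor's co-chaperone, had 39.0 and 41.4 CPM at day 3 and 32.2 and 168 at week 8, and only replicate 2 was above day 3.

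Known target genes of the glucocorticoid receptor were higher at week 8 in 12 of 27 cases, and none fell (median 1.88 against both libraries, 1.12 against replicate 1 and 2.17 against replicate 2). Klf9 had 27.4 and 20.3 CPM at day 3 and 107 and 219 at week 8 (2.87 ± 0.53), Zbtb16 16.2 and 13.8 CPM at day 3 and 46.8 and 55.9 at week 8 (1.88 ± 0.29) and the metallothionein Mt1 77.6 and 75.5 CPM at day 3 and 319 and 795 at week 8 (2.97 ± 0.47). All 3 were higher in both week 8 libraries than in either day 3 library. Tsc22d3, the leucine zipper GILZ, rose by 1.04 ± 0.25 and Sult1a1, a sulfotransferase, by 2.60 ± 0.42. Glul and Gjb6 stand on this list and on that of astrocytes. Cdkn1a, the cell cycle inhibitor p21, had 6.86 and 14.4 CPM at day 3 and 1.42 and 40.6 at week 8. Its log2 fold change was -2.79 against replicate 1 and 2.04 against replicate 2, so the 2 week 8 libraries gave opposite directions for this member.

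Imprinted genes of fetal growth fell in 6 of 20 cases, beside 7.41% of all genes tested. They rose in 2 cases, a share near the 9.31% of all genes tested. Beside H19 those that fell were Mest, Cdkn1c, Nnat, Magel2 and Zim1, with log2 fold changes between -2.60 and -1.47. Nnat, neuronatin, had 761 and 1213 CPM at day 3 and 362 and 301 at week 8. Impact and Nap1l5 rose, Impact from 63.9 and 89.1 to 407 and 202 CPM. Igf2, the fetal growth factor next to H19, had 113 and 111 CPM at day 3 and 62.3 and 46.1 at week 8 (-0.94 ± 0.57). It was lower against each week 8 library alone and did not pass against both. Igf2 is also made by meninges, whose 26 listed genes summed to 815 and 887 CPM at day 3 and 1665 and 999 at week 8. That sum includes Igf2 itself and Ptgds, which rose and is given below. The list's median log2 fold change was -0.05 against both libraries. The part of meninges in the Igf2 value was not tested. None of 14 genes of the insulin and IGF axis passed in all 3 comparisons: Igf1 had 14.6 and 30.3 CPM at day 3 and 7.98 and 6.72 at week 8 and Igfbp2 128 and 103 CPM at day 3 and 36.5 and 25.0 at week 8, both called lower only against each library alone. The RNA-binding genes of the fetal programme had 4 falls in 14, beside 7.41% of all genes tested. Mex3a had 122 and 111 CPM at day 3 and 5.14 and 3.77 at week 8 (-4.60 ± 0.28), Ptbp2, which holds back adult splicing, 327 and 282 CPM at day 3 and 137 and 149.5 at week 8 (-0.98 ± 0.24), and Igf2bp1 and Igf2bp2, which bind fetal growth mRNAs, were at 0 or 2 counts at week 8 after 3.36 to 6.92 CPM at day 3.

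Cholesterol synthesis genes fell in 7 of 18 cases, while 2 genes of turnover rose. Hmgcs1, of the first steps, had 883 and 787 CPM at day 3 and 284 and 271 at week 8 (-1.48 ± 0.23). Fdps had 216 and 218 CPM at day 3 and 70.9 and 60.6 at week 8 (-1.62 ± 0.21), and Fdft1, Sqle, Lss and Cyp51 fell by 0.99 to 1.19. The week 8 libraries of these 6 were between 1.05-fold and 1.29-fold apart. The 2 that rose were Apoe, the main lipid carrier of the brain (1.64 ± 0.27), and Cyp46a1, which converts neuronal cholesterol for export (2.88 ± 0.65). The late enzymes Dhcr7, Msmo1 and Sc5d were not called against both libraries.

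The matrix changed in composition. Of 12 listed genes of brain matrix and perineuronal nets 5 fell and 2 rose. Vcan, versican, had 308 and 203 CPM at day 3 and 20.2 and 35.6 at week 8 (-3.09 ± 0.40), and Ncan, neurocan, 529 and 599.6 CPM at day 3 and 206 and 189.6 at week 8 (-1.41 ± 0.26). The hyaluronan synthases Has2 and Has3 and Tnc also fell. The link proteins Hapln1 and Hapln4, which fasten proteoglycans to hyaluronan, rose, Hapln4 from 0.624 and 1.27 to 22.4 and 96.1 CPM (6.06 ± 1.22). Of 15 collagen genes 3 fell in all comparisons, Col2a1, Col5a2 and Col18a1, and Col9a1 was called against both but not against replicate 1 alone. Col3a1 and Col1a1, of fibrous tissue, had 86.4 and 93.4 CPM at day 3 and 14.3 and 1.65 at week 8 and 79.1 and 66.5 CPM at day 3 and 24.9 and 4.73 at week 8. They were lower against each week 8 library alone, with replicate 2 under replicate 1 by 8.71-fold and 5.26-fold.

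Of 24 genes of endothelium and mural cells 2 rose and 2 fell, shares near the 9.31% and 7.41% of all genes tested: the glucose transporter Slc2a1 (2.26 ± 0.42) and Ly6c1 (2.98 ± 0.63) rose, and Notch3, of mural cells (-1.48 ± 0.26), and the VEGF receptor Kdr (-1.02 ± 0.24) fell. Cldn5, Cdh5 and Pecam1, defining genes of endothelium, were not called against both, with Pecam1 at 6.69 and 5.02 CPM at day 3 and 5.68 and 8.78 at week 8.

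Of 26 genes of meninges 2 rose, Ptgds (61.7 and 118 CPM at day 3 and 901 and 565 at week 8) and Nov, again a share near that of all genes tested. The median of this list was -0.05 against both libraries, 0.44 against replicate 1 and -0.94 against replicate 2, so its sign differed between the week 8 libraries. No choroid plexus gene of 20 was called against both libraries, although the median log2 fold change was -2.54. Ttr, transthyretin, had 3107 and 413 CPM at day 3 and 44.2 and 22.2 at week 8, so that the 2 day 3 libraries were 7.52-fold apart. No ependymal gene of 16 was called against both either, with medians of -0.67 against both libraries, -0.32 against replicate 1 and -2.04 against replicate 2. Of the markers of neighbouring regions, 3 of 13 striatal genes fell (Isl1, Rgs9 and Six3), 1 of 15 genes of thalamus and habenula fell (Zic1, -1.97 ± 0.38) and 1 of 13 hypothalamic genes rose (Gpr101), and the single calls of these last lists are near the share of all genes. Tcf7l2, which defines thalamic neurons, had 6.41 and 95.4 CPM at day 3 and 3.99 and 3.63 at week 8 and was not called.

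Histone genes that depend on replication were lower at week 8, for most by very different amounts in the 2 libraries. All 23 tested genes of the list were called lower against each library alone and 2 of them, Hist1h3b and Hist2h3b, also against both. The list leaves out many genes of these clusters, among them Hist1h2af, Hist1h3g and Hist1h2bp: of 55 tested, 53 were lower against each library alone and 11 in all 3 comparisons. The list's medians were -2.66 against replicate 1 and -8.54 against replicate 2, or -8.41 with the 3 members that had no count there set to the floor of 3 counts. Hist1h2bc was an exception to the gap, with 116 and 98.9 CPM at day 3 and 58.3 and 59.2 at week 8. Hist1h4c, for example, had 519 and 511 CPM at day 3 and 256 and 0.343 at week 8. Its log2 fold change was -0.91 against replicate 1 and -10.41 against replicate 2, where a few counts remained. Cell cycle genes did not show this gap, since their medians against the 2 libraries were -2.85 and -2.56. The small RNAs Rpph1, Rmrp, Scarna2, Scarna6, Rnu11 and Terc had the same gap, with a sum of 72856 CPM in week 8 replicate 1 and 0.411 in replicate 2, against 63209.5 and 60771 at day 3. As background, histone mRNAs and these small RNAs carry no poly(A) tail. The labels name ribosomal RNA removal for all libraries, and the part of library preparation in these values was not tested. Histone genes also stand in multicopy clusters, so their counts depend on how reads with several matches were handled.

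In 308 genes the direction of the change with age depended on which week 8 library was used. Of these, 162 (1.01% of genes tested) were higher against replicate 1 and lower against replicate 2, and 146 (0.913%) the reverse, and none was called against both. Eef1a1 had 9738 and 7662 CPM at day 3 and 36959.7 and 2721 at week 8. The mismatch repair gene Pms1 had 25.0 and 24.9 CPM at day 3 and 63.3 and 4.94 at week 8, and Ankrd12 316 and 321 CPM at day 3 and 748 and 75.3 at week 8. In each of them replicate 1 was above and replicate 2 below both day 3 libraries. In the reverse group Tuba1c, an alpha-tubulin, had 21.5 and 23.1 CPM at day 3 and 9.87 and 443 at week 8. The fold changes had the same pair of signs in NS offspring in 149 of the 162 and 139 of the 146 genes, and 79 and 85 were called so there. Among list members 12 of 678 were in this set, including 4 of 27 nuclear-encoded respiratory chain genes, Cox5b, Cox6c, Ndufa2 and Ndufb3. Of that list 2 rose in all comparisons, Cox8a (1.74 ± 0.23) and Sdha (1.43 ± 0.20), a share near that of all genes, and its median was -0.02 against both libraries, 0.28 against replicate 1 and -0.15 against replicate 2.

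**Figure D4:**
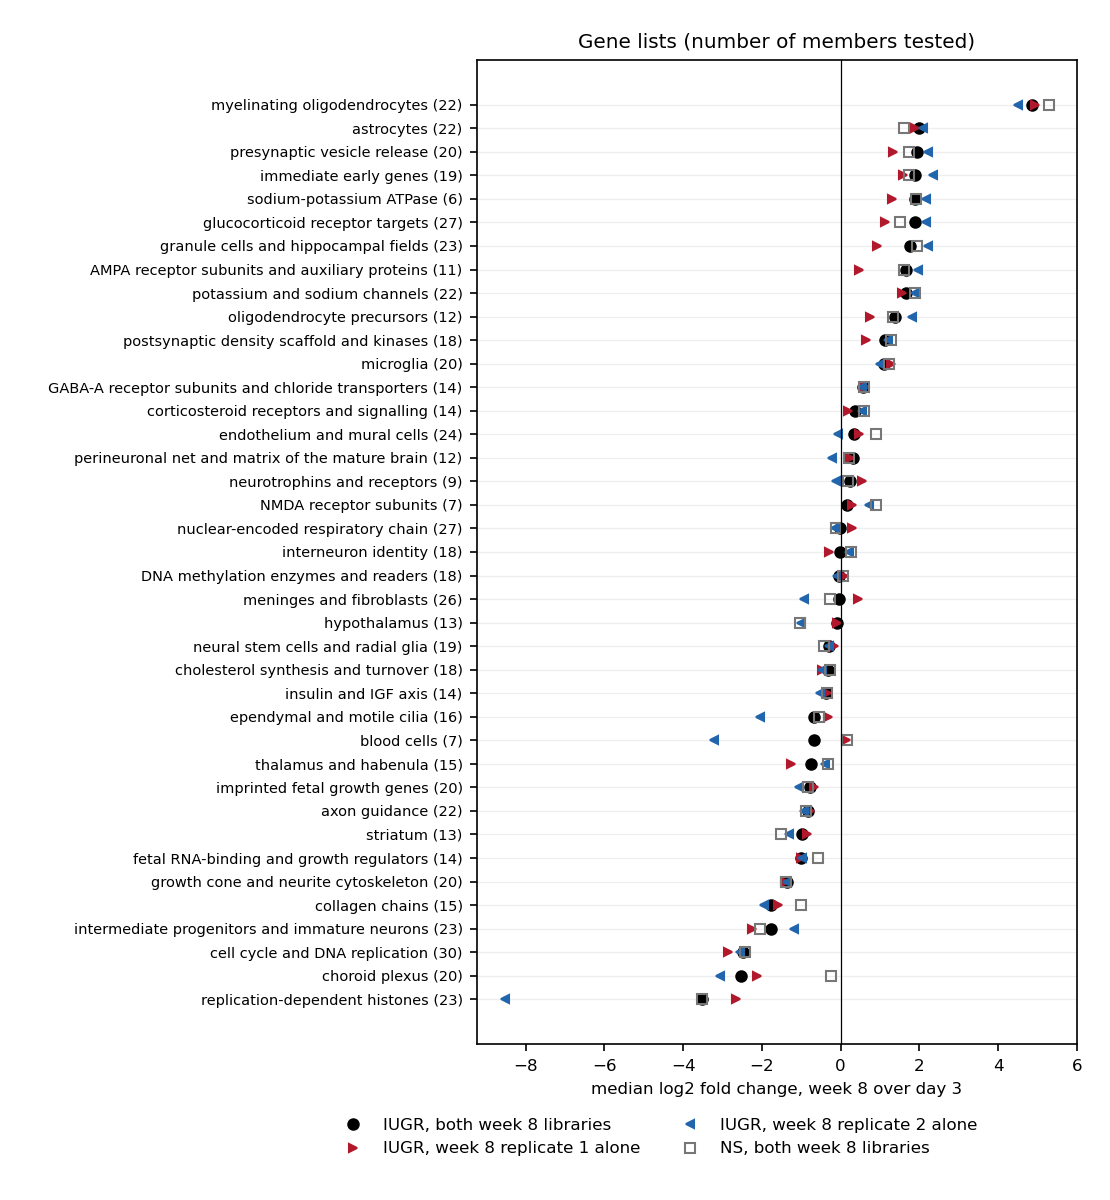
Median log2 fold change from day 3 to week 8 of the tested members of 39 gene lists, for IUGR offspring against both week 8 libraries (black), replicate 1 alone (red) and replicate 2 alone (blue), and for NS offspring (open squares). The myelin list lies at 4.85 and the cell cycle list at -2.48 with all 4 markers close together, while histones, meninges, blood cells and motile cilia have red and blue markers far apart.

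The change with age was then set against that of NS offspring. The 2 changes come from separate libraries, but their calls share 1 estimate of the spread and are not independent. In NS 1232 genes (7.7%) were higher and 1031 (6.44%) lower at week 8. All 2675 genes that rose or fell in IUGR had a fold change of the same sign in NS, and 1982 were called the same way there. Across all genes tested the log2 fold changes of IUGR and NS correlated at 0.910, and at 0.831 and 0.894 for the week 8 libraries numbered 1 and 2; genes are not independent replicates. No gene differed in its change with age between IUGR and NS at an adjusted p under 0.05 with edgeR, DESeq2 or limma voom. With edgeR 82 genes had an unadjusted p under 0.05, and 39 of these were among the 2675. The replicate differences of week 8 in NS and IUGR correlated at 0.854 across genes, and this fit counts that shared difference as spread. With a term for it 554 genes had an unadjusted p under 0.05, and again none passed adjustment. With 2 libraries a group this does not show that the changes are alike.

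The 10 genes with the smallest p for that difference were A130077B15Rik, Anks4b, Gjb6, Sspo, Tctex1d1, Ankrd61, 3110070M22Rik, Tdrd1, Lpar2 and Cfap44, and none passed adjustment (edgeR adjusted p = 1.00 for each). Gjb6 had 15.8 and 16.6 CPM in NS at day 3, above 4.20 and 6.78 in IUGR, and 94.2 and 89.8 against 71.1 and 129.8 at week 8. Its change with age was larger in IUGR by 1.76 ± 0.49 on the log2 scale. Lpar2, a receptor for lysophosphatidic acid, had 8.16 and 8.93 CPM at day 3 and 0.541 and 0.343 at week 8 in IUGR and 7.98 and 8.62 CPM at day 3 and 1.53 and 1.26 at week 8 in NS. At day 3 the 4 values were alike, and at week 8 both IUGR libraries were lower (difference -1.61 ± 0.49). Sspo, an ependymal secreted protein, had 0.113 and 0.0551 CPM at day 3 and 2.03 and 3.77 at week 8 in IUGR and 1.93 and 3.48 CPM at day 3 and 3.45 and 9.42 at week 8 in NS. Cfap44, a cilium gene, had 14.2 and 12.5 CPM at day 3 and 8.99 and 8.57 at week 8 in IUGR and 11 and 9.93 CPM at day 3 and 15.3 and 14.3 at week 8 in NS (difference -1.03 ± 0.32). Both IUGR libraries were the higher ones at day 3 and the lower ones at week 8. Each of the other 6 stayed at no more than 3.58 CPM. The myelin, cell cycle and immature neuron lists had median differences between IUGR and NS of 0.07, -0.01 and 0.00 on the log2 scale. The medians farthest from 0 were -2.06 for choroid plexus, -0.53 for motile cilia, -0.51 for endothelium and mural cells, 0.41 for glucocorticoid receptor targets, -0.39 for collagen chains and -0.37 for thalamus and habenula. For endothelium and mural cells the median change with age was 0.34 in IUGR and 0.90 in NS, and 2 of the 24 genes had an unadjusted p under 0.05 for the difference.

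Side by side, 12 of 27 glucocorticoid receptor target genes were called higher at week 8 in IUGR (median 1.88) and 6 higher and 1 lower in NS (median 1.51). Over all genes tested 9.34% were called higher in IUGR and 7.7% in NS, so IUGR had more such calls in general. The 6 of NS were Bcl6, Gjb6, Glul, Klf9, Mt1 and Zbtb16, and all were among the 12. Sult1a1 had 4.42 and 3.75 CPM at day 3 and 14 and 32.2 at week 8 in IUGR and 11 and 12 CPM at day 3 and 20.5 and 20.5 at week 8 in NS, a difference of 1.74 ± 0.56. Angptl4, a lipase inhibitor, had 10.8 and 10.7 CPM at day 3 and 4.19 and 7.34 at week 8 in IUGR and 25.1 and 21.8 CPM at day 3 and 4.99 and 5.16 at week 8 in NS (difference 1.38 ± 0.45). In both genes the IUGR libraries were the lower ones at day 3. With Gjb6 these were the only members of that list under an unadjusted p of 0.05, and none passed adjustment. Of all 15999 genes tested 82 were under that p. The choroid plexus list had medians of -2.54 in IUGR and -0.23 in NS. Its summed level in NS was 281 and 6967 CPM at day 3 and 9206 and 300.4 at week 8, so single libraries of either age set it.

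**Figure D5:**
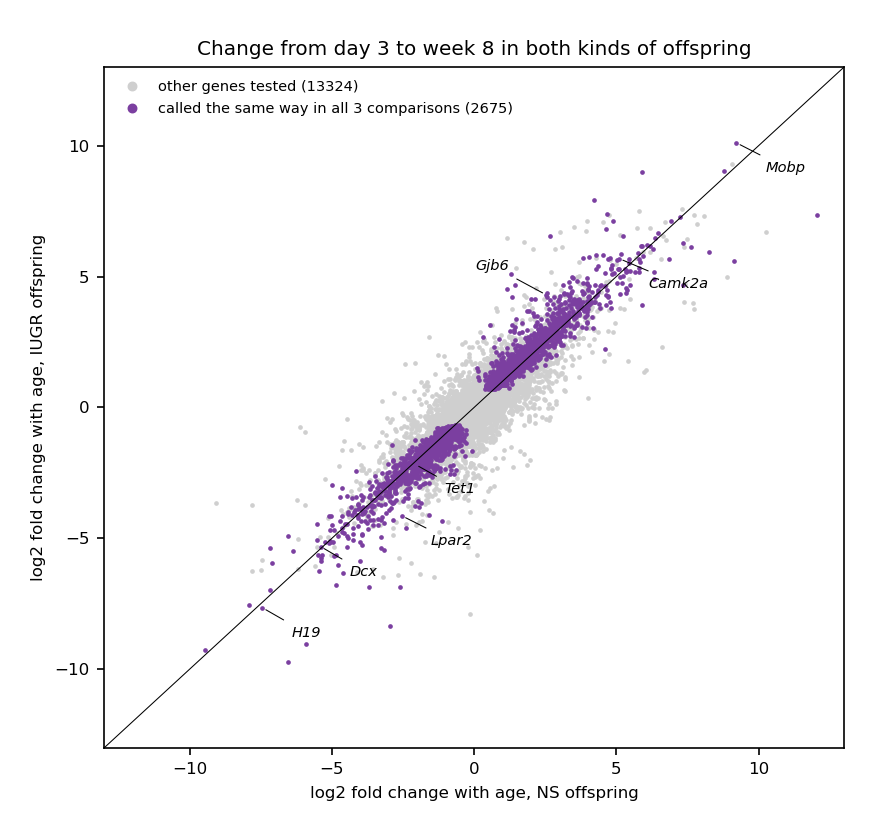
Each point is 1 of 15999 genes; the axes give its log2 fold change from day 3 to week 8 in NS (x) and IUGR offspring (y), and the line marks equal change. The 2675 purple genes, called the same way in all 3 IUGR comparisons, all have the same sign on both axes, and no gene passed the test of the difference.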

How the data were processed

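RNA of hippocampus was sequenced in 8 libraries, 2 for each of 4 groups. The authors deposited raw counts per gene symbol as one table for day 3 and one for week 8; per the labels' protocols total RNA was depleted of ribosomal RNA, and per the submitters' processing notes cutadapt 1.16, HISAT2 2.1.0, SAMtools 1.9 and featureCounts 1.6.1 were used with mm10. DESeq2 1.26.0 is named there too, and the scaled tables were not used here. Which annotation release was used, whether strand was read and how multiply matching reads were treated is not given in the sources used here, so antisense, overlapping and near-identical genes are uncertain.

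Both tables held the same 24421 symbols and were joined on them. Of these, 15999 passed edgeR's filterByExpr on the 4 groups and 3847 had no count. Library totals ran from 13030277 to 18993050 and TMM factors from 0.950 to 1.03. Tests were edgeR 4.0.16 quasi-likelihood tests (R 4.3.3, limma 3.58.1) on all 8 libraries with Benjamini-Hochberg adjustment and a threshold of 0.05. The comparison with both week 8 libraries used 4 group means (4 residual degrees of freedom), and the single comparisons 6 means, with each week 8 library its own (2 residual degrees of freedom). The script was tested on simulated counts. CPM is a count over its library total, without TMM. Gene positions are those of the GRCm38 annotation. Upstream windows came from RefSeq's promoter table, matched by symbol.

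Named genes were the 10 higher and 10 lower with the largest change among genes called in all 3 comparisons, with a mean of at least 5 CPM and no overlap between ages, leaving out unnamed models and small RNAs. The 10 genes with the smallest p for the difference from NS, list members, Tet1 and Nr3c1 were named too. A few genes chosen in this way are not reported here by name and remain in the counts. The members and gene lists were chosen with earlier results of these data known. Replicate numbers were not taken as pairs, since replicate differences of IUGR day 3 and week 8 correlated at 0.094 across genes. Those of NS and IUGR at week 8 correlated at 0.854, a difference shared by the week 8 libraries that the 4 means count as spread (common biological coefficient of variation 0.374, against 0.158 with a term for it). Alternatives changed the scaling, the count filter, the tool (DESeq2 1.42.0, limma voom), the replicate block and the libraries included.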

Additional observations from a re-analysis of the deposited data

Results flagged for a closer look

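When only the week 8 libraries numbered 2 were used, the change with age differed between IUGR and NS offspring for 2 genes, Lars2 and Rn45s. Lars2, the mitochondrial leucyl-tRNA synthetase, had 705 and 713 CPM at day 3 and 776 and 267 at week 8 in IUGR, and 710.5 and 619.9 at day 3 and 744 and 38.8 at week 8 in NS. The difference of the log2 fold changes was 2.76 with an edgeR adjusted p of 0.0382. Rn45s, the precursor of ribosomal RNA, had 5075 and 4812 CPM at day 3 and 2747 and 9783 at week 8 in IUGR, and 5542 and 5503 at day 3 and 3337 and 549 at week 8 in NS, a difference of 4.38 (edgeR adjusted p = 0.0382). In both genes the libraries numbered 2 of the 2 groups lay apart, while those numbered 1 gave differences of 0.05 and -0.03. Each group was then 1 library at week 8, so the spread came from the day 3 pairs, although the week 8 libraries of either group differed far more in these genes. With both week 8 libraries neither gene was called (edgeR adjusted p = 1.00 for each). The libraries were depleted of ribosomal RNA, and the part of that step in these values was not tested.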

How the results depend on the processing

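The pooled comparison called 2691 genes. Leaving out 1 library at a time gave 91 to 4104, lowest without IUGR day 3 replicate 1 and highest without NS week 8 replicate 2. DESeq2 gave 4581, a shared term for the week 8 libraries numbered 2 gave 6942 and the IUGR libraries alone 1428. With the replicate block 3500 were called, and 1707 in the IUGR libraries alone. Without both week 8 libraries numbered 2, 6791 were called, and without both numbered 1, 9209. Without both day 3 libraries numbered 2 edgeR called 0, with 2096 at an unadjusted p under 0.05. The shared term and the 3 settings that leave out both libraries of a number were chosen after seeing the data. Against replicate 1 alone 6828 genes were called, 3811 with at least a 2-fold change and 929 when the spread came from the 3 remaining pairs of libraries. Against replicate 2 alone these were 9186, 6058 and 2382. Genes called in all 3 comparisons numbered 2675, and 91 to 4019 with 1 library left out. The difference from NS had 0 calls, and 2 with the libraries numbered 2 alone in either form of the fit. The cause of these moves was not tested.

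Of 174 genes followed singly 173 were called (Nr3c1 was not), and none changed direction in any setting run. Most were chosen because they were called in all 3 comparisons, so their calls and directions here were largely set by that choice. All 174 kept their side of the threshold with RLE scaling and with the replicate block, 172 with upper-quartile scaling and 169 with limma voom. Without IUGR day 3 replicate 1 149 lost their call, without day 3 replicate 2 136, without week 8 replicate 2 76 and without week 8 replicate 1 21. List medians that changed sign in some setting were those of interneurons, perineuronal nets, endothelium, meninges, blood cells, DNA methylation, respiratory chain, neurotrophins and hypothalamus. For a gene with no count in a library the floor of 3 counts limits what can be seen, and its fitted fold change depends on the prior count and is no bound.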
